A study of Mus musculus with 4 samples.

Results

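Irf8, Irf5 and Klf4 are 3 transcription factors of monocytes, macrophages and dendritic cells, and their transcripts were followed here by library, genotype and marker-defined cell class. They were taken by gene symbol, and all 3 were found among the 3624 genes of the deposited count table. The table came from single-cell RNA sequencing (10x Genomics Chromium) of progenitors sorted from C57Bl/6J mouse fetal liver at stage E14.5. Libraries A and B were made from Gata2-77-/- embryos, homozygous for a deletion of a distal enhancer upstream of Gata2, and F and I from wild type (n = 2 libraries per genotype). The sort was the same in all 4 libraries and took Kit+ Cd34+ cells that were negative for lineage markers and Sca1. The library letters are the deposited ones and are tied to no sample number, and p-values measure the spread between these libraries, which may be technical where the embryos were not handled separately.

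Irf8 belongs to the interferon regulatory factors and acts with PU.1, the product of Spi1. In mouse progenitors it drives monocyte and dendritic cell commitment and restrains neutrophil differentiation. Klf4 is a zinc finger factor needed for mouse monocytes and is known to act below Irf8. Irf5, another interferon regulatory factor, relays Toll-like receptor signals through MyD88 to inflammatory cytokine genes in macrophages. Cebpe, a late granulocyte factor, and Gata2, a stem and progenitor cell factor whose enhancer was deleted, served as the regulators of other fates.

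In mm10 coordinates and GENCODE M21 annotation, Irf8 (ENSMUSG00000041515.10) spans chr8:120736358-120756694 on the + strand. It lies within the long annotated gene Gm20388 of the same strand, so reads of both could not be told apart. Irf5 (ENSMUSG00000029771.12) spans chr6:29526625-29541871 on the + strand, and its 3′ end overlaps Tnpo3 of the - strand by 1045 bases. How the counting treated strand is not given in the sources used here, so Irf5 reads in that overlap are uncertain. Klf4 (ENSMUSG00000003032.8) spans chr4:55527143-55532466 on the - strand with no overlapping gene. The 250 bases before each RefSeq start (build GRCm38.p6) are shown because these 3 genes are compared throughout. Capitals mark the interferon gamma type STAT motif TTCNNNGAA, the GC box GGGCGG of Sp and KLF factors, and the TATA motif TATAA, searched on both strands, with TATAA matches on opposite strands allowed to overlap.

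Irf8, chr8:120736108-120736357 (+): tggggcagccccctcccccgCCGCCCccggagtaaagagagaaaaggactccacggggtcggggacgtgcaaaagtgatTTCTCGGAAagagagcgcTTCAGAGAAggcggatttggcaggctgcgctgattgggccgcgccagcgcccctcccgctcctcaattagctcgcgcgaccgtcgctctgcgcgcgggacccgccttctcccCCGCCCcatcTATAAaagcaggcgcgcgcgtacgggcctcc
Irf5, chr6:29526375-29526624 (+): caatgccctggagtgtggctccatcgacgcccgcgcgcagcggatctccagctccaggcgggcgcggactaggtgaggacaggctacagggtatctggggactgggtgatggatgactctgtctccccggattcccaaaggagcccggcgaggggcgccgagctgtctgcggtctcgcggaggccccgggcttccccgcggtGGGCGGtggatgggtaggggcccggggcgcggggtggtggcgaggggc
Klf4, chr4:55532476-55532725 (-): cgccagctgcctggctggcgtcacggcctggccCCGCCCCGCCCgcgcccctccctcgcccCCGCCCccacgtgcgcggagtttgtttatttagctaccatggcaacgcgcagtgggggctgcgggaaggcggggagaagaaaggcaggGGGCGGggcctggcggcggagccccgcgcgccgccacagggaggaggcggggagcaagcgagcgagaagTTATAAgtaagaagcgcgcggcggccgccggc

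The Irf8 window held 2 matches to TTCNNNGAA, which begin at positions -171 and -153 from the start. This motif was found in 7.02% of the 32851 promoter windows of the same length, and in neither the Irf5 nor the Klf4 window. GGGCGG was found 2 times before Irf8, 1 time before Irf5 and 4 times before Klf4, against a match in 32.7% of all windows. TATAA was found before Irf8 and Klf4, and in 22.8% of all windows. The interferon-stimulated response motif (2.98% of windows), the GATA motif AGATAA (9.99%) and the PU.1-type motif GAGGAA (23.3%) were in none of these 3 windows. A second RefSeq start of Irf8, with a window at chr8:120738389-120738638, held none of the 6 motifs.

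The libraries held 1938 to 3042 cells and 16837863 to 40117680 UMIs (unique molecular identifiers). The Gata2-77-/- libraries were shallower, with medians of 7492 and 7087 UMIs per cell in A and B, against 12826.5 and 17437.5 in the wild-type libraries F and I. Levels are given as CPM, a gene's share of the UMIs of all measured genes in that library or class, in the usual CPM scaling. Kit reached 40.3 and 39.6 CPM in Gata2-77-/- libraries, against 41.8 and 45.2 CPM in wild-type libraries. Cd34 reached 306 and 333 CPM in Gata2-77-/- libraries, against 186 and 210 CPM in wild-type libraries. Xist, read from the inactive X chromosome, reached 410 CPM in library B and 492 CPM in library I, while A had 0 UMIs (allowing up to 0.178 CPM) and F had 0.0249 CPM.

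Over all cells, Irf8 rose in the Gata2-77-/- libraries, Irf5 was higher without passing the threshold, and the Klf4 levels of the genotypes overlapped. Irf8 was by far the most abundant of the 3, with 20347 UMIs in 5388 of 9960 cells, while Irf5 had 2390 UMIs in 1718 cells and Klf4 had 816 UMIs in 536 cells. Since depth per cell differed, levels were compared as sums over libraries and detection in cells thinned to equal UMIs.

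Irf8 reached 255 and 257 CPM in Gata2-77-/- libraries A and B, against 153 and 141 CPM in wild-type libraries F and I. Both Gata2-77-/- values lay above both wild-type values, by more than the spread within either genotype. The log2 fold change was 0.75 (SE 0.086, edgeR adjusted p = 0.00980), or 1.68-fold. Of all genes tested, 8.86% passed this threshold in either direction and 2.76% were called higher in Gata2-77-/-. Without library A the adjusted p of Irf8 was 0.0592, at a log2 fold change of 0.70. In such sums over a library, more cells of a type and more RNA per cell cannot be told apart.

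Irf5 reached 25.7 and 30.3 CPM in Gata2-77-/- libraries, against 16.5 and 20.4 CPM in wild-type libraries. The groups did not overlap, which held for 54.1% of all genes tested. Its log2 fold change of 0.56 (SE 0.14) did not pass (edgeR adjusted p = 0.0807). It passed in 5 of 12 alternatives and not in the others, at log2 fold changes from 0.43 to 0.81. Adjusted p-values were 0.0429 with library totals in place of edgeR's TMM scaling and 0.00143 with the DESeq2 Wald test. In edgeR they were 0.0179 with a term for Xist and 0.0218 in thinned cells. The fifth left out library I.

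Klf4 reached 8.67 and 6.48 CPM in Gata2-77-/- libraries, against 6.73 and 7.99 CPM in wild-type libraries. The groups overlapped, and the log2 fold change was -0.00 (SE 0.31, edgeR adjusted p = 0.995). The libraries held 129 to 271 Klf4 UMIs each.

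Cebpe and Gata2 went the other way. Cebpe had 25.8 and 25.05 CPM in Gata2-77-/- libraries, against 215 and 167 CPM in wild-type libraries. The log2 fold change of Cebpe was -2.96 (SE 0.16), with an edgeR adjusted p of 0.00312. Gata2 had 7.48 and 6.73 CPM in Gata2-77-/- libraries, against 26.3 and 23.2 CPM in wild-type libraries. Its log2 fold change was -1.86 (SE 0.19), with an edgeR adjusted p of 0.00792, and 0.0545 without library A. The deleted enhancer is outside the Gata2 transcript, so the UMIs do not read the deletion itself.

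**Figure D1:**
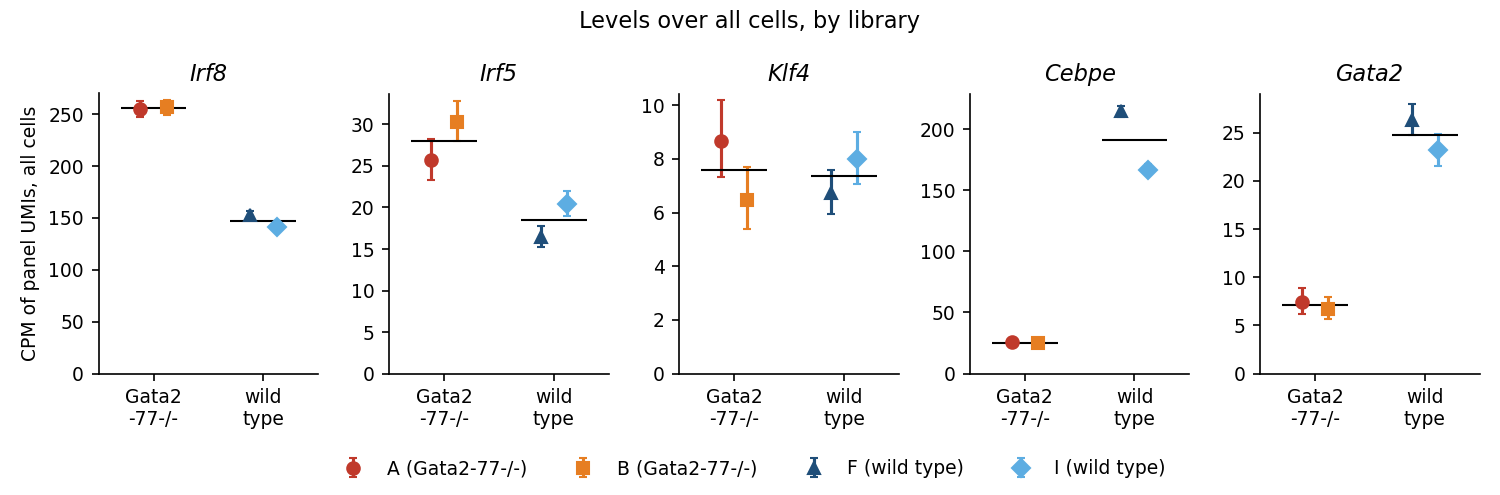
CPM of Irf8, Irf5, Klf4, Cebpe and Gata2 over all cells (y axes, linear from 0) in each library, by genotype (x axes). Points are libraries with exact 95% Poisson intervals, which cover counting error only, and lines are the means of 2 libraries; Irf8 sits at 255 and 257 CPM in Gata2-77-/- and at 153 and 141 CPM in wild type, while the Klf4 points of the genotypes overlap.

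The share of cells with Irf8 differed between genotypes, while over all cells the UMIs per cell with Irf8 overlapped. In cells thinned to 4346 UMIs, Irf8 was detected in 54.4% and 54.4% of Gata2-77-/- cells (libraries A and B), against 29.3% and 30.4% of wild-type cells (F and I). Where it was detected, a cell held a mean of 2.10 and 2.06 Irf8 UMIs in Gata2-77-/- libraries, against 2.08 and 1.84 in wild-type libraries, which overlap. In HSPC-like cells, one of the classes described below, these means did not overlap, at 1.58 and 1.65 in Gata2-77-/- libraries against 1.49 and 1.49 in wild-type libraries. For how many other genes such means or detection shares do not overlap was not counted. Irf5 was detected in 10.6% and 12.02% of Gata2-77-/- cells, against 5.94% and 6.55% of wild-type cells. Klf4 was detected in 3.43% and 2.75% of Gata2-77-/- cells, against 2.35% and 2.67% of wild-type cells. The Klf4 ranges lay side by side without overlap, 2.75% being the lower Gata2-77-/- value and 2.67% the higher wild-type one. With 2 libraries against 2, the exact two-sided permutation test cannot go below p = 0.33, which was the p for each of these 3 differences in detection.

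Thinning left out 855 Gata2-77-/- and 140 wild-type cells that were too shallow. Without thinning, Irf8 detection was still higher in Gata2-77-/- cells, by 17.5 percentage points in place of 24.5. For Irf5 and Klf4 the unthinned difference turned round, to -1.68 and -1.95 percentage points, in libraries whose wild-type cells were the deeper ones. Background was read in erythroid-like cells, which should lack all 3 genes. There Irf8 was detected in 0 of 3 and 0 of 3 thinned Gata2-77-/- cells, against 2.04% and 0% of 49 and 36 wild-type cells, and Irf5 and Klf4 in 0 of 85 wild-type cells, which allows up to 3.53%.

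Cells fell into 17 clusters in a clustering that used none of Irf8, Irf5, Klf4, Cebpe or Gata2, and clusters were named from marker genes. The HSPC-like class (hematopoietic stem and multipotent progenitor) had the markers Hlf, Meis1, Mycn and Hoxa9. Its name rests on such markers alone, since the sort left out Sca1+ cells. In it, the 13 measured neutrophil markers summed to 1818 to 2012 CPM, above 742 to 781 CPM for the 12 HSPC markers. The other classes were monocyte/macrophage-like (Ly86, Ms4a6c, Fcgr1), neutrophil-like (Elane, Prtn3, Ms4a3), basophil/mast-like (Cpa3, Hdc) and erythroid-like (hemoglobin genes). A cluster with erythroid, megakaryocyte and mast markers together was kept apart. The 6 clusters that no marker list named were pooled as unnamed progenitors, and 1 of them was led by mitotic genes such as Ccnb1 and Plk1. Clusters 3 and 14 among them were shallow, with medians of 3898.5 and 2797 UMIs per cell, and both were led by Rpgrip1 and Slc39a1. Cluster 3 held 193 and 175 cells in Gata2-77-/- libraries, against 64 and 22 in wild-type libraries. Cluster 14 held 73 and 70, against 45 and 31. The whole unnamed class held 833 and 1155 cells, against 587 and 518.

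All 3 genes were highest in monocyte/macrophage-like cells. Irf8 averaged 418 ± 68.7 CPM there (SD, n = 4 libraries), 250.4 ± 32.9 CPM in unnamed progenitors and 76.2 ± 19.6 CPM in HSPC-like cells. These 3 classes did not overlap across libraries. Neutrophil-like cells (107 ± 75.5 CPM) and basophil/mast-like cells (99.3 ± 58.1 CPM) had ranges that overlapped each other, and the basophil/mast-like range overlapped that of HSPC-like cells. The cluster of mixed erythroid and mast markers and the erythroid-like cells had 27 and 4 Irf8 UMIs in all.

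Irf5 had the same first 2 classes. It averaged 61.3 ± 8.88 CPM in monocyte/macrophage-like cells, 20.2 ± 1.87 CPM in unnamed progenitors and 11.0 ± 1.23 CPM in HSPC-like cells (SD, n = 4 libraries), with no overlap between these 3. HSPC-like, neutrophil-like (9.38 ± 7.22 CPM) and basophil/mast-like cells (6.16 ± 2.40 CPM) overlapped their neighbours in this order. Erythroid-like cells had 0 Irf5 UMIs.

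Klf4 was the most restricted. It averaged 26.4 ± 5.95 CPM in monocyte/macrophage-like cells and 5.33 ± 0.699 CPM in unnamed progenitors (SD, n = 4 libraries), which did not overlap, while unnamed progenitors overlapped neutrophil-like cells, which averaged 2.51 ± 1.71 CPM. HSPC-like cells had only 11 Klf4 UMIs in all 4 libraries, and basophil/mast-like cells 2. Monocyte/macrophage-like cells held 74.7% and 65.1% of the Klf4 UMIs of the Gata2-77-/- libraries, against 70.4% and 79.3% in the wild-type libraries. The same class held 39.4% to 49.4% of Irf8 UMIs and 52.3% to 60.7% of Irf5 UMIs over the 4 libraries.

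**Figure D2:**
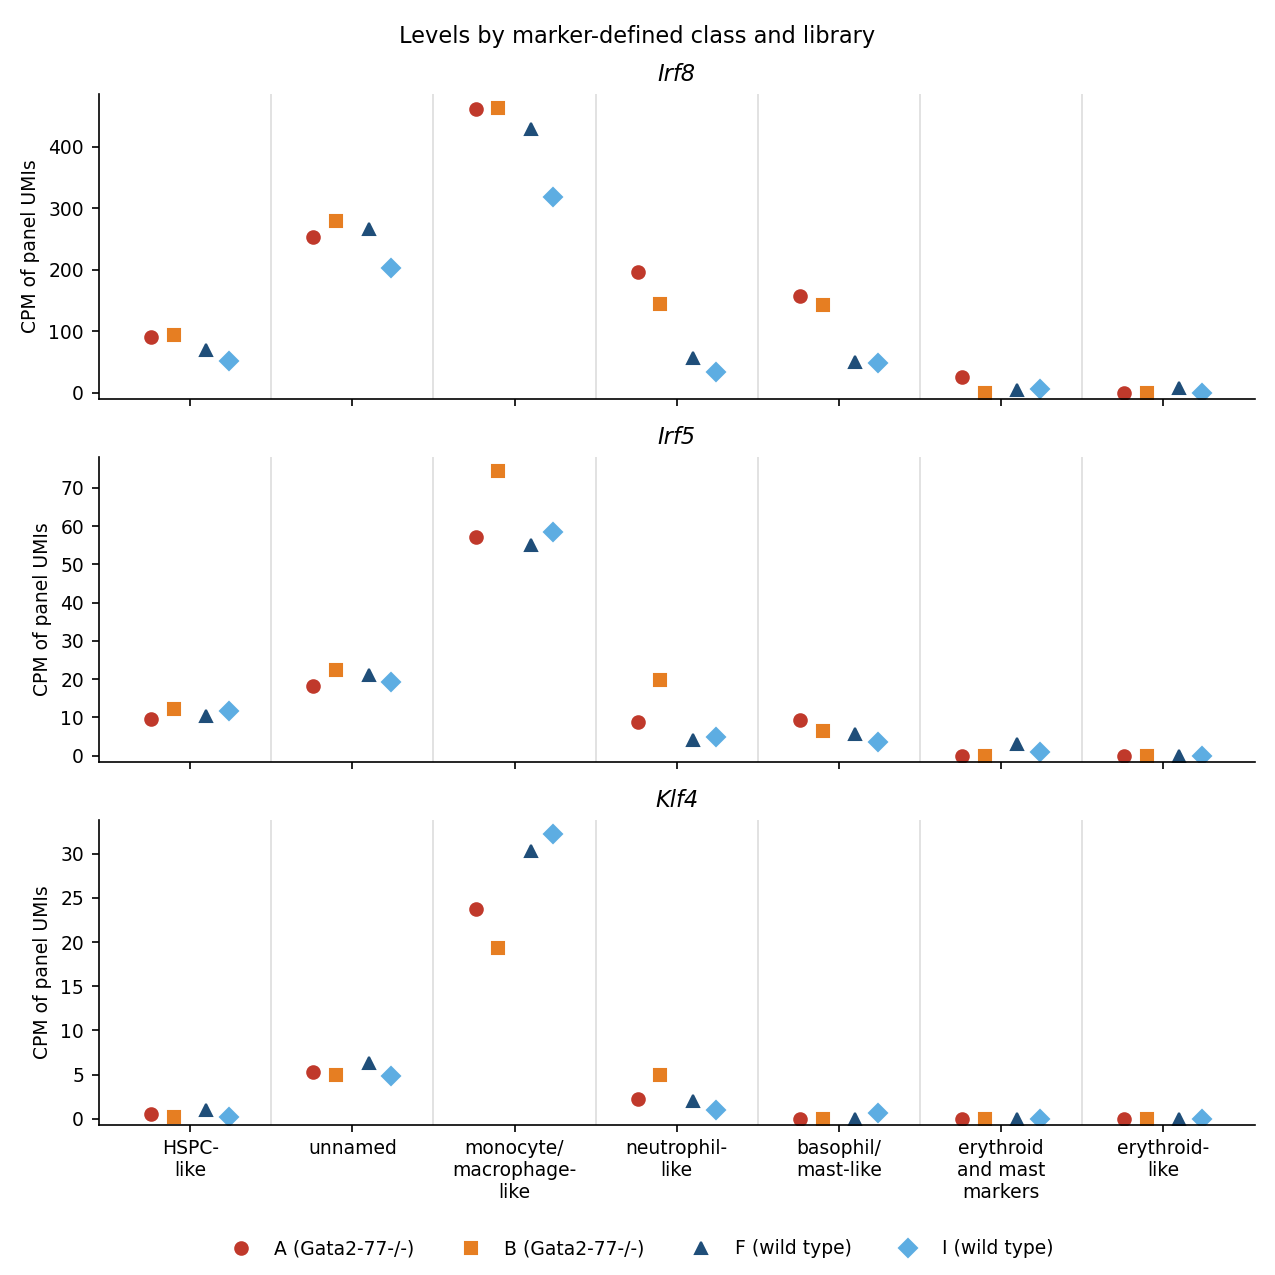
CPM of Irf8 (top), Irf5 (middle) and Klf4 (bottom) by marker-defined class on the x axis, with 1 point per library and Gata2-77-/- libraries left of wild type in each class. The highest points of all 3 genes are in monocyte/macrophage-like cells; points of Gata2-77-/- libraries outside the HSPC-like, unnamed and monocyte/macrophage-like classes rest on 2 to 57 cells each.

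Within the monocyte/macrophage-like class the 3 clusters ranked the genes differently. In cluster 11, led by Lgals3, Trem2 and Ccr2, Klf4 reached 36.5 and 37.0 CPM in Gata2-77-/- libraries, against 43.9 and 71.2 CPM in wild-type libraries. In cluster 4, led by Ctss and Ly86, it reached 9.99 and 12.001 CPM in Gata2-77-/- libraries, against 17.6 and 20.6 CPM in wild-type libraries, below every value of cluster 11. Irf5 was likewise higher in cluster 11, with 86.0 and 101 CPM in Gata2-77-/- libraries against 99.5 and 122 CPM in wild-type libraries, than in cluster 12, led by Ly6c2 and Ctsc, with 34.8 and 51.6 CPM in Gata2-77-/- libraries against 40.7 and 43.2 CPM in wild-type libraries. Irf8 was spread more evenly, from 281 to 501 CPM over the 3 clusters and 4 libraries.

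None of the 3 genes passed the threshold for a genotype effect in any class with at least 50 cells per library. The share of all genes whose genotypes do not overlap was counted over all cells only, at 54.1%, and not within a class. In HSPC-like cells, Irf8 reached 89.8 and 94.0 CPM in Gata2-77-/- libraries, against 69.1 and 51.8 CPM in wild-type libraries. The genotypes did not overlap, at a log2 fold change of 0.56 (SE 0.13, edgeR adjusted p = 0.157, with 0.504% of genes called in this class). The value depended on which cells were counted as HSPC-like: at a finer clustering (Leiden resolution 1.5) it was 0.06 (adjusted p = 0.820), and with library totals it was 0.60 and passed (adjusted p = 0.0255). Irf5 in HSPC-like cells had 9.66 and 12.3 CPM in Gata2-77-/- libraries, against 10.4 and 11.8 CPM in wild-type libraries, which overlap (log2 fold change -0.05, SE 0.20, edgeR adjusted p = 0.937). Klf4, with 3 and 1 UMIs in Gata2-77-/- libraries against 6 and 1 in wild-type libraries, did not pass the filter on low counts. Gata2 in these cells had 14.6 and 12.9 CPM in Gata2-77-/- libraries, against 30.1 and 29.3 CPM in wild-type libraries (log2 fold change -1.16, SE 0.16, edgeR adjusted p = 0.0466). That call ended without any 1 of the 4 libraries, with adjusted p-values of 0.0517 without A, 0.286 without B, 0.301 without F and 0.315 without I.

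In monocyte/macrophage-like cells, Irf8 reached 462 and 464 CPM in Gata2-77-/- libraries, against 428 and 318 CPM in wild-type libraries. The Gata2-77-/- values lay above both wild-type values, and library I was the lowest (log2 fold change 0.35, SE 0.14, edgeR adjusted p = 0.180, with 6.91% of genes called in this class). Without library I the log2 fold change was 0.13 (adjusted p = 0.623), while it was 0.62 without library F (adjusted p = 0.0484) and 0.38 without library B (adjusted p = 0.0205). Irf5 had 57.2 and 74.4 CPM in Gata2-77-/- libraries, against 55.0 and 58.5 CPM in wild-type libraries, which overlap (log2 fold change 0.26, SE 0.12, edgeR adjusted p = 0.230). Its direction turned at a coarser clustering (Leiden resolution 0.5), to -0.34.

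Klf4 leaned the other way in monocyte/macrophage-like cells. It had 23.7 and 19.4 CPM in Gata2-77-/- libraries, against 30.3 and 32.3 CPM in wild-type libraries. These did not overlap, but how many other genes do so in this class was not counted. The log2 fold change of -0.49 (SE 0.18) did not pass (edgeR adjusted p = 0.145), and ranged from -0.87 to -0.19 over 12 alternatives, none of which passed. Cebpe in the same cells had 22.4 and 22.8 CPM in Gata2-77-/- libraries, against 73.8 and 131 CPM in wild-type libraries (log2 fold change -2.13, SE 0.25, edgeR adjusted p = 0.00427). At Leiden resolution 0.5, where the class was 1 cluster of 668 and 619 cells in Gata2-77-/- libraries, against 238 and 126 cells in wild-type libraries, the Cebpe value was 0.14 (adjusted p = 0.846).

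The makeup of the monocyte/macrophage-like class differed between genotypes. Clusters 4 and 11 held most of it in Gata2-77-/- libraries, with 213 and 299 cells in cluster 4 and 237 and 201 in cluster 11, against 70 and 26 and then 98 and 52 in wild-type libraries. Cluster 12 held 161 and 111 cells in Gata2-77-/- libraries, against 216 and 236 in wild-type libraries, where it was the largest of the 3. Csf1r, Ccr2 and Cx3cr1 met the marker rule in clusters 4 and 11 but not in cluster 12. At Leiden resolution 0.5, a neutrophil-like cluster with Elane and Ly6c2 among its leading genes held 132 and 98 cells in Gata2-77-/- libraries, against 796 and 462 in wild-type libraries. Where the cells of cluster 12 went was not followed. Within the class, the 13 measured neutrophil markers summed to 6795 and 6580 CPM in Gata2-77-/- libraries, against 13119 and 13944 CPM in wild-type libraries. In each library that was above the sum of the 13 measured monocyte/macrophage markers. Those summed to 2648 and 2251 CPM in Gata2-77-/- libraries, against 2591 and 2290 CPM in wild-type libraries, which overlap. The 12 measured HSPC markers summed to 130 and 145 CPM in Gata2-77-/- libraries, against 64.3 and 56.9 CPM in wild-type libraries. The part of these differences in the values of Irf8, Irf5 and Klf4 was not tested.

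In unnamed progenitors, Irf8 had 254 and 278 CPM in Gata2-77-/- libraries, against 266 and 203 CPM in wild-type libraries, which overlap (log2 fold change 0.16, SE 0.14, edgeR adjusted p = 0.745). Irf5 and Klf4 overlapped there as well, at log2 fold changes of 0.00 (SE 0.16) and -0.13 (SE 0.28), with edgeR adjusted p-values of 0.999 and 0.892. No gene at all passed in this class with edgeR (0% called), although 309 had an unadjusted p under 0.05 and the DESeq2 Wald test called 20.

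**Figure D3:**
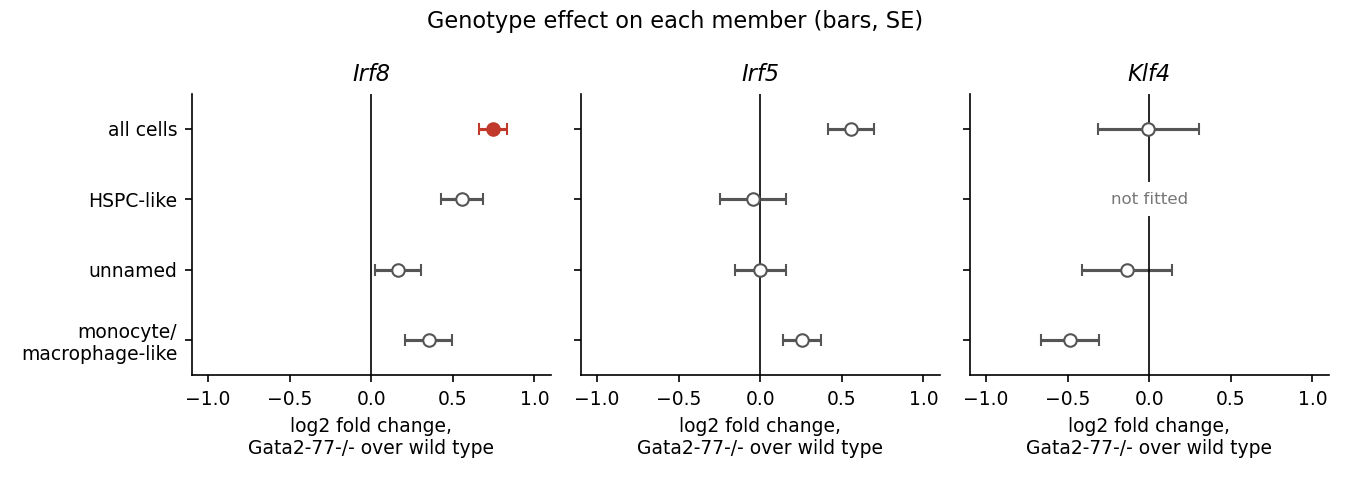
Log2 fold change of Irf8, Irf5 and Klf4 (x axes, Gata2-77-/- over wild type) over all cells and within 3 classes (rows), with the edgeR standard error as bars. The filled point, Irf8 over all cells at 0.75, is the one with an adjusted p under 0.05; Klf4 in HSPC-like cells was not fitted for want of UMIs.

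Outside the monocyte side, Irf8 was higher in the few cells of the Gata2-77-/- libraries named neutrophil-like or basophil/mast-like. In neutrophil-like cells it had 196 and 143 CPM in Gata2-77-/- libraries (57 and 29 cells), against 56.4 and 34.2 CPM in wild-type libraries (935 and 384 cells). The log2 fold change was 1.88 (SE 0.30), with an edgeR adjusted p of 0.0583, in a fit added after the data had been seen because library B held under 50 such cells. The adjusted p was 0.212 without library A and 0.0163 without library B, and the call passed in 5 of 8 alternatives. Only 0.311% of genes were called in this class. Cebpe in these cells had 287 and 366 CPM in Gata2-77-/- libraries, against 567 and 563 CPM in wild-type libraries (log2 fold change -0.88, SE 0.12, edgeR adjusted p = 0.0358). Basophil/mast-like cells showed the same order for Irf8, with 157 and 142 CPM in Gata2-77-/- libraries (24 and 16 cells), against 50.2 and 48.4 CPM in wild-type libraries (257 and 147 cells), and were not tested. The 5 measured basophil/mast markers summed to 60.0 and 116 CPM in these Gata2-77-/- cells, against 268 and 310 CPM in the wild-type cells. In library A that was below the 80.5 CPM of its unnamed progenitors, so the cells compared under this name may be unlike.

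Whether the genotype effect itself differed between classes was tested for monocyte/macrophage-like against HSPC-like cells, with the library as a factor. For Irf8 the effect in monocyte/macrophage-like cells minus that in HSPC-like cells was -0.20 on the log2 scale (SE 0.087, edgeR adjusted p = 0.102), in a comparison where 21.8% of genes passed. With library totals it was -0.29 and passed (adjusted p = 0.0162). For Irf5 it was 0.32 (SE 0.20, edgeR adjusted p = 0.272). In simulated data this test recovered few small changes, so a difference that did not pass does not show equal effects in the classes. For Klf4 no such difference is given, since HSPC-like cells held 11 of its UMIs.

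When each library was given the same mix of the 3 classes (33.7% HSPC-like, 25.5% monocyte/macrophage-like and 40.8% unnamed), Irf8 differed less between genotypes than over all cells, but this also left out the cells of the other classes. Standardised Irf8 was 252 and 263 CPM in Gata2-77-/- libraries, against 241 and 181 CPM in wild-type libraries, a ratio of the means of 1.22, where the ratio of mean CPM over all cells was 1.74. Cells of the same 3 classes, each library keeping its own mix, had 259 and 259 CPM in Gata2-77-/- libraries, against 255 and 197 CPM in wild-type libraries, a ratio of 1.15. The ratio was thus already low before the mix was fixed. The standardised ratio was 1.07 without library I, 1.42 without library F and 1.39 at Leiden resolution 1.5. At resolution 0.5 it was 1.52, over 4 classes, since neutrophil-like cells then also reached 50 cells per library. Standardised Irf5 was 25.3 and 32.3 CPM in Gata2-77-/- libraries, against 26.1 and 26.8 CPM in wild-type libraries, which overlap (ratio 1.09, 0.958 without library B, and 1.004 with each library's own mix). Standardised Klf4 was 8.41 and 6.99 CPM in Gata2-77-/- libraries, against 10.6 and 10.2 CPM in wild-type libraries (ratio 0.738, and 0.658 with each library's own mix). For Irf8 and Klf4 the exact permutation p was 0.33, the smallest this design allows.

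Over all cells, Cebpe and Gata2 were detected less often, and Irf5 and Klf4 more often, in cells with 4 or more Irf8 UMIs than in cells with 0. This held in all 4 libraries, though not at every step between. Cells were split by their Irf8 UMIs after thinning, into those with 0, 1, 2 to 3, or 4 or more. Among cells with 0 Irf8 UMIs, Cebpe was detected in 9.07% and 8.05% of Gata2-77-/- cells, against 44.2% and 36.3% of wild-type cells. Among cells with 4 or more, it was detected in 4% and 4.24% of Gata2-77-/- cells, against 24.1% and 18.2% of wild-type cells. With 2 to 3 Irf8 UMIs it was detected in 6.47% and 7.77% of Gata2-77-/- cells, against 14.9% and 19.4% of wild-type cells, so that in library F it was higher again at 4 or more. At each stratum both wild-type values were above both Gata2-77-/- values.

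Gata2 was rare in the cells highest in Irf8. With 0 Irf8 UMIs it was detected in 3.94% and 4.89% of Gata2-77-/- cells, against 11.4% and 10.8% of wild-type cells. With 4 or more it was detected in 0% and 0.606% of Gata2-77-/- cells (of 125 and 165), against 0% and 0% of wild-type cells (of 116 and 55). Irf5 was detected in 5.73% and 6.99% of Gata2-77-/- cells with 0 Irf8 UMIs, against 3.09% and 3.54% of wild-type cells. At 4 or more Irf8 UMIs it was detected in 17.6% and 15.8% of Gata2-77-/- cells, against 14.7% and 21.8% of wild-type cells, and in library B this was below the 17.8% at 2 to 3.

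Klf4 was detected in 2.03% and 0.479% of Gata2-77-/- cells with 0 Irf8 UMIs, against 0.676% and 0.828% of wild-type cells. At 4 or more Irf8 UMIs it was detected in 7.20% and 6.06% of Gata2-77-/- cells, against 6.90% and 14.55% of wild-type cells, and in library F this was below the 9.06% at 2 to 3. Csf1r, the receptor for the monocyte growth factor M-CSF, was detected in 8.95% and 8.91% of Gata2-77-/- cells with 0 Irf8 UMIs, against 5.84% and 6.62% of wild-type cells. At 4 or more it was detected in 36.8% and 30.3% of Gata2-77-/- cells, against 31.0% and 23.6% of wild-type cells. Within the monocyte/macrophage-like class these patterns did not hold in every library. From 0 to 4 or more Irf8 UMIs, Irf5 there went from 23.7% and 22.2% to 22.0% and 22.8% in Gata2-77-/- libraries. It went from 21.1% and 20.2% to 15% and 31.25% in wild-type libraries. Klf4 fell from 13.4% to 7.32% in library A but rose in B, F and I. Cebpe rose from 21.1% to 26.7% in library F but fell in A, B and I.

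**Figure D4:**
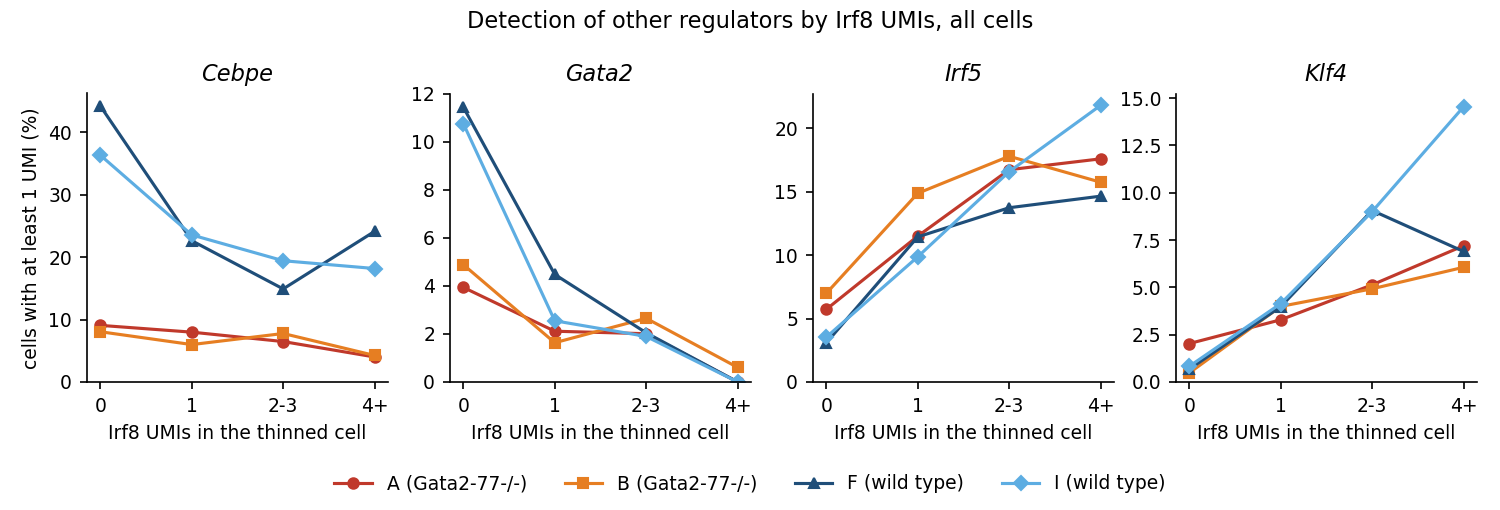
Percent of thinned cells of all classes together with at least 1 UMI of Cebpe, Gata2, Irf5 or Klf4 (y axes, from 0) by the number of Irf8 UMIs in the cell (x axes), with 1 line per library. Cebpe and Gata2 are lower in cells with 4 or more Irf8 UMIs than in cells with 0, for Cebpe from 44.2% to 24.1% in wild-type library F, and Irf5 and Klf4 are higher; not every line is monotonic, and Cebpe in library F is lowest, at 14.9%, with 2 to 3 Irf8 UMIs.

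Co-detection was set against the number of cells expected if the genes were spread independently within the same library. Irf8 and Cebpe were found together in 68 and 81 Gata2-77-/- cells, against 170 and 125 wild-type cells. That was 0.868 and 0.903 times the expected number in Gata2-77-/- libraries, against 0.534 and 0.677 times in wild-type libraries. The ratio was lower in wild type, but it also depends on the share of cells with Irf8, which differed between genotypes. Among cells with Irf8, Cebpe was detected in 6.81% and 6.51% of Gata2-77-/- cells, against 19.8% and 21.6% of wild-type cells. Irf8 and Gata2 were found together at 0.649 and 0.589 times the expected number in Gata2-77-/- libraries, against 0.325 and 0.255 times in wild-type libraries. Klf4 and Gata2 shared 1 cell in all, in library A.

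The 3 monocyte regulators were found together more often than expected. For Irf8 and Irf5 the ratio was 1.38 and 1.35 in Gata2-77-/- libraries, against 2.15 and 2.05 in wild-type libraries. For Irf8 and Klf4 it was 1.34 and 1.69 in Gata2-77-/- libraries, against 2.72 and 2.58 in wild-type libraries. For Irf5 and Klf4 it was 2.10 and 2.51 in Gata2-77-/- libraries (14 and 19 cells), against 4.39 and 4.49 in wild-type libraries (18 and 15 cells). In all of these pairs the genotypes did not overlap, and the exact permutation p was 0.33. How many other gene pairs do so was not counted. Such a ratio cannot exceed the inverse of the share of cells with the commoner gene. Irf8, and Irf5 in its pair with Klf4, were the commoner genes. Each was detected in a larger share of Gata2-77-/- cells, so all of these ratios had a lower ceiling there. The ratios therefore cannot show whether the genes went together more closely in 1 genotype.

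Within the monocyte/macrophage-like class the ratios of Irf8 with Cebpe and with Irf5 came close to 1, while Irf5 with Klf4 stood at 1.3 and 1.24 in Gata2-77-/- libraries, against 1.38 and 1.63 in wild-type libraries. Irf8 with Cebpe stood at 0.919 and 0.940 in Gata2-77-/- libraries, against 0.989 and 0.893 in wild-type libraries. Irf8 with Irf5 stood at 0.986 and 1.04 in Gata2-77-/- libraries, against 0.972 and 1.04 in wild-type libraries. Cells with both Irf8 and Cebpe thus made up about the number expected inside this class. In unnamed progenitors Irf8 with Cebpe stayed below 1, at 0.644 and 0.697 in Gata2-77-/- libraries, against 0.697 and 0.622 in wild-type libraries, which overlap.

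**Figure D5:**
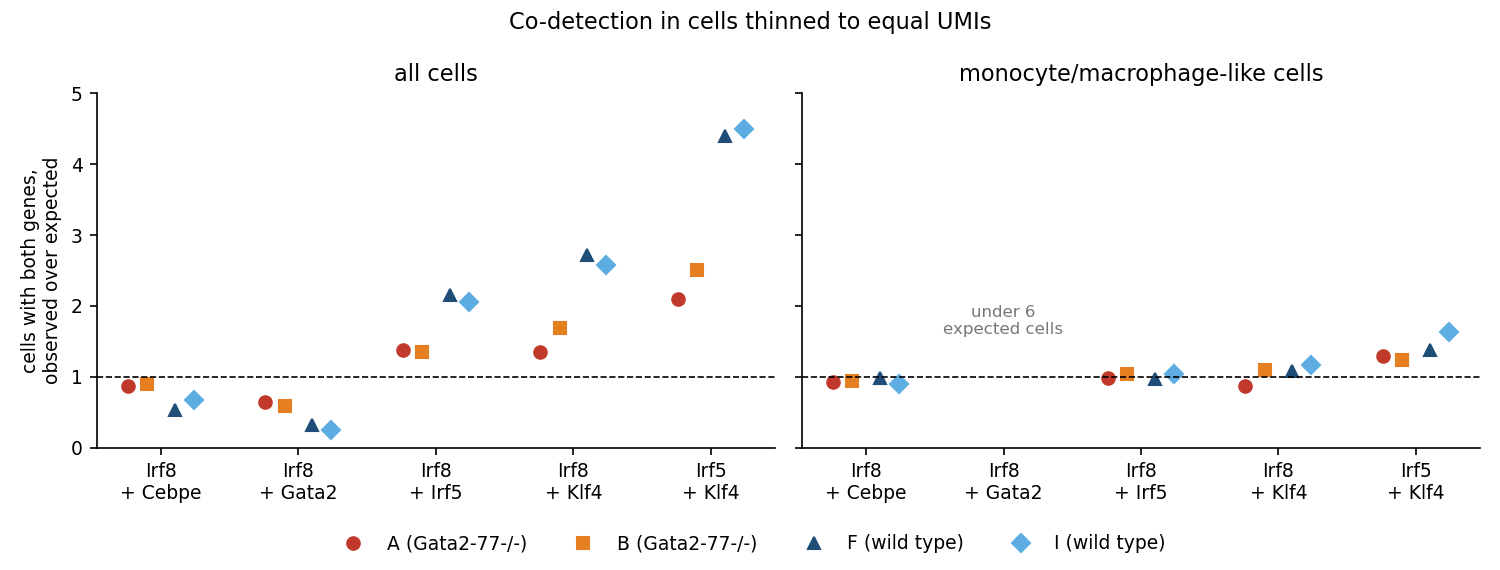
Cells with both genes of a pair, observed over expected from the shares of each gene in the same library (y axis, linear), for 5 pairs, over all cells (left) and in monocyte/macrophage-like cells (right), with 1 point per library. Over all cells the pairs with Cebpe or Gata2 lie below 1 and the pairs among Irf8, Irf5 and Klf4 above it, while within the class Irf8 with Cebpe or Irf5 lies between 0.893 and 1.04.

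Genes whose level followed each member most closely were ranked by Pearson's r of log2(CPM + 1) over 12 sums (3 classes in 4 libraries), among 3451 genes with a mean of at least 20 CPM. The 12 sums share libraries, depth and class, so r is a description. For Irf8 the leading genes were Rogdi (r = 0.989), Glipr1 (0.989), Erp29 (0.988), Rassf4 (0.988) and Ms4a6b (0.987), the last a membrane protein of the monocyte marker list. For Irf5 they were Psap (0.993), a precursor of lysosomal activator proteins, Dek (0.989), Unc93b1 (0.984), which carries Toll-like receptors to endosomes, Ctsb (0.983), a lysosomal protease, and Sp140 (0.980). For Klf4 they were Msrb1 (0.991), Pld4 (0.990), Lyz2 (0.988), which encodes lysozyme, Ncf4 (0.988), an NADPH oxidase subunit, and Tmed3 (0.988). The members followed each other with r of 0.888 for Irf8 with Irf5, 0.932 for Irf8 with Klf4 and 0.950 for Irf5 with Klf4, and Gata2 ran opposite, with r of -0.940 for Irf8, -0.901 for Irf5 and -0.889 for Klf4. Cebpe ran with the members over the same sums, with r of 0.744 for Irf8, 0.688 for Irf5 and 0.829 for Klf4.

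Among genes that act above or beside Irf8, the interferon gamma receptor gene Ifngr1 fell and the M-CSF receptor gene Csf1r rose. Of 17 measured regulators and partners of Irf8, 2 were called higher and 3 lower in Gata2-77-/- over all cells, where 2.76% of all genes were called higher and 6.1% lower. Ifngr1, the ligand-binding chain, had 54.9 and 59.1 CPM in Gata2-77-/- libraries, against 101 and 100.1 CPM in wild-type libraries (log2 fold change -0.87, SE 0.055, edgeR adjusted p = 0.00338). Myb, a factor of proliferating progenitors, had 88.7 and 88.3 CPM in Gata2-77-/- libraries, against 149 and 147 CPM in wild-type libraries (log2 fold change -0.79, edgeR adjusted p = 0.00359). Csf2ra, a chain of the GM-CSF receptor, fell by 0.73 on the log2 scale (edgeR adjusted p = 0.0185). Csf1r rose by 0.61 (edgeR adjusted p = 0.0245) and Ikzf1, a zinc finger factor of lymphoid and myeloid cells, by 0.25 (edgeR adjusted p = 0.0410). Spi1, which encodes the partner PU.1, had 381 and 409 CPM in Gata2-77-/- libraries, against 376 and 377 CPM in wild-type libraries (log2 fold change 0.02, edgeR adjusted p = 0.889). With A left out, the adjusted p was 0.0872 for Csf2ra, 0.118 for Csf1r and 0.163 for Ikzf1. Without library B it was 0.113 for Csf2ra and 0.203 for Ikzf1, without F 0.0547 for Csf1r and 0.102 for Ikzf1, and without I 0.0537 for Csf1r and 0.107 for Ikzf1.

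Of 20 measured genes of the monocyte and dendritic program below Irf8 and Klf4, 6 were called higher over all cells and 0 lower. Of all genes tested, 2.76% were called higher and 6.1% lower. Csf1r, Trem2, Ms4a6b and Ms4a6c, among those called, are also on the marker list of the monocyte/macrophage-like class. The list median was 0.56 on the log2 scale, against 0.00 for all genes. Ifi203, an interferon-inducible gene, had 76.2 and 82.3 CPM in Gata2-77-/- libraries, against 37.9 and 37.3 CPM in wild-type libraries (log2 fold change 1.02, SE 0.059, edgeR adjusted p = 0.00338). H2-DMa, which helps load peptides on MHC class II, rose by 0.79 (edgeR adjusted p = 0.00950). Trem2, a macrophage receptor, rose by 1.24 (edgeR adjusted p = 0.0236). Csf1r, given above, Ms4a6b (0.71, edgeR adjusted p = 0.0354) and Ms4a6c (0.51, edgeR adjusted p = 0.0397) were the others. With A left out, H2-DMa had an adjusted p of 0.0742, Trem2 of 0.178, Ms4a6b of 0.189 and Ms4a6c of 0.0868. Trem2 (0.111) and Ms4a6b (0.128) also missed without B, Ms4a6c without F (0.0907), and Ms4a6b (0.0584) and Ms4a6c (0.135) without I. Ly6c2, a surface marker of inflammatory monocytes that neutrophil progenitors also carry, had 78.6 and 40.0 CPM in Gata2-77-/- libraries, against 228 and 150.3 CPM in wild-type libraries (log2 fold change -1.72, edgeR adjusted p = 0.0544).

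The other lists were small. Of 6 measured genes of Irf5 signalling, 0 passed in the main edgeR fit over all cells, where 8.86% of all genes did. The smallest p-values were those of Unc93b1 (log2 fold change 0.23, edgeR adjusted p = 0.125) and Ccl3, a chemokine (0.99, edgeR adjusted p = 0.142). Ccl3 passed in edgeR with a term for Xist (adjusted p = 0.0432), and both passed in the DESeq2 Wald test, Ccl3 at an adjusted p of 0.0141 and Unc93b1 at 0.0449. Nfkb1 (0.12) and Ly86 (0.18) followed, with edgeR adjusted p-values of 0.432 and 0.518. Of the 3 granulocyte regulators, Cebpe and Gfi1 fell, Gfi1 to 5.82 and 4.57 CPM in Gata2-77-/- libraries, against 18.0 and 14.9 CPM in wild-type libraries (log2 fold change -1.72, edgeR adjusted p = 0.0207, but 0.0917 without library A and 0.152 without B), while Id1 had a log2 fold change of 0.15 (edgeR adjusted p = 0.196). Other interferon regulatory factor genes in the table were Irf3 (log2 fold change 0.08, edgeR adjusted p = 0.489) and the cofactor gene Irf2bp2, which fell by 0.37 (edgeR adjusted p = 0.0400, and 0.114, 0.200 and 0.102 without A, B and F). The only other KLF gene was Klf1, the erythroid factor, which fell by 3.59 (edgeR adjusted p = 0.00878, and 0.0545 without library A).

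In HSPC-like cells, where 0.504% of all genes were called, none of the genes of these lists passed in edgeR. Among them were 18 of the monocyte and dendritic program, whose median was 0.11 on the log2 scale against -0.01 for all genes tested there. In monocyte/macrophage-like cells, 6.91% of all genes were called in either direction. There 9 of 20 genes of that program were called higher and 1 lower, with a median of 0.43 against -0.00 for all genes tested. Of the 17 regulators and partners of Irf8, 3 were higher and 1 lower. The higher ones among the regulators were Csf1r (0.51), Flt3 (2.08), a receptor of early and dendritic progenitors, and Tcf4 (0.90), a factor of plasmacytoid dendritic cells, with edgeR adjusted p-values of 0.0226, 0.0248 and 0.0402, and the lower one was Ifngr1 (-0.46, edgeR adjusted p = 0.0334). Several of these genes are markers that defined the class or entered its clustering, the clusters in it differed between genotypes, and without library I the number of all genes called in it was 8 in place of 247.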

How the data were processed

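The authors deposited a table of UMI counts for 3624 genes in 9960 cells, with each cell's library and genotype in a second table, matched by column order; per the submitters' processing notes, Cell Ranger 2.0.2, Seurat 2.3.4 and mm10 were used. Cell barcodes were not used here, so barcodes shared between libraries were not counted. Counts were summed per library, or per library and class, and fitted with edgeR 4.0.16 (quasi-likelihood, TMM scaling, filterByExpr, Benjamini-Hochberg adjustment over all genes tested, threshold 0.05), with DESeq2 1.42.0 as an alternative (R 4.3.3, limma 3.58.1). The fits were tested on simulated data. Cells were clustered with scanpy 1.11.5 (1000 variable genes, 30 principal components, 15 neighbours, Leiden resolution 1.0, seed 1). A cluster was named from at least 3 markers of a list. For detection, cells were thinned to 4346 UMIs. The doublet caller marked 9 cells, under 0.5% of each library, and so has not worked. Single differences were tested by exact two-sided permutation over libraries (scipy 1.17.1). Intervals (exact Poisson, 95%) and floors (3 counts) cover counting error only.

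The genes and lists were chosen with earlier results of these data known. The naming rule for clusters, the pooled unnamed class and the fit in neutrophil-like cells were chosen after seeing the data. Fits within clusters 11 and 12 were also run and seen, and are not reported. Named genes were Irf8, Irf5, Klf4, Cebpe, Gata2, the 4 genes of each list with the smallest p over all cells, and the 5 most similar to each member; Ikzf1, Spi1, Ms4a6b, Ms4a6c, Ly6c2, Flt3 and Tcf4 were added after their values were seen. Alternatives were DESeq2 size factors, library totals, no filter, the DESeq2 Wald test, a term for Xist, other thinning, other clusterings and leaving out each library.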

Additional observations from a re-analysis of the deposited data

How the results depend on the processing

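No paired analysis was possible because the library letters in the count table carry no replicate number. Over 57 results and 597 alternative values, 471 kept their direction and side of the threshold, or moved by less than the spread, and 22 turned round; the cause was not tested. Leaving out 1 library leaves a genotype with a lone library, which is assumed to vary like the other genotype. Over all cells, the log2 fold change of Irf8 ranged from 0.65 to 0.83 without 1 library, and lost its call without A. That of Irf5 passed at 0.55 with the DESeq2 Wald test, 0.61 with library totals, 0.55 with a term for Xist and 0.81 in thinned cells, and ranged from 0.43 to 0.68 without 1 library. That of Klf4 turned to 0.0390 with library totals and 0.16 in thinned cells, and ranged from -0.28 to 0.23. In HSPC-like cells Irf8 passed at 0.60 with library totals, and Irf5 turned to 0.00208 with library totals and 0.42 in thinned cells (-0.19 to 0.0785 without 1 library). In monocyte/macrophage-like cells Irf8 ranged from 0.13 to 0.62 without 1 library, Irf5 turned to -0.34 and Cebpe to 0.14 at resolution 0.5, and Gata2 ranged from -1.04 to 0.0461 without 1 library. The Irf8 difference between classes passed at -0.29 with library totals. In unnamed progenitors, Irf8 ranged from -0.0376 to 0.38 and Irf5 from -0.13 to 0.10 without 1 library. Irf5 there was -0.00535 with the DESeq2 Wald test, -0.000125 with DESeq2 size factors, -0.10 with members allowed in clustering and -0.0155 in thinned cells. Klf4 there turned to 0.22 at resolution 0.5 and 0.0195 at 1.5 (-0.36 to 0.0792 without 1 library). Ly86 over all cells ranged from -0.0656 to 0.39 without 1 library.

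Counts of genes called moved most. Over all cells DESeq2 called 734, and 66 to 291 were called without 1 library. In HSPC-like cells the count was 46 with DESeq2, 11 at resolution 0.5, 66 with library totals, 10 with members allowed in clustering, 39 in thinned cells and 0 to 32 without 1 library. In monocyte/macrophage-like cells it was 15 at resolution 0.5, 43 at 1.5, 48 with members allowed in clustering, 147 in thinned cells and 8 to 310 without 1 library. The difference between classes had 235 with DESeq2 and 414 to 982 without 1 library. Unnamed progenitors had 20 with DESeq2, 20 at resolution 0.5, 31 at 1.5, 2 with library totals, 6 in thinned cells and 0 to 1 without 1 library.

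Detection differences, in percentage points, were 17.5 for Irf8, -1.68 for Irf5 and -1.95 for Klf4 without thinning, and 27.7 for Irf8 and 3.84 for Irf5 at 9777 UMIs. The co-detection differences (observed over expected, Gata2-77-/- minus wild type) without thinning were 0.112 for Irf8 with Gata2, -0.496 for Irf8 with Irf5, -0.679 for Irf8 with Klf4 and -1.44 for Irf5 with Klf4, and at 9777 UMIs -0.633 for Irf8 with Irf5 and -0.817 for Irf8 with Klf4. The class-standardised difference was 92.3 CPM for Irf8 at resolution 0.5 and -0.776 CPM for Klf4 at 1.5 and -4.04 CPM for Klf4 with each library's own mix of the classes (chosen after seeing the data), and for Irf5 ranged from -1.14 to 5.64 CPM without 1 library. Depth limits Klf4 most, with 816 UMIs in all.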
